A study of Mus musculus with 7 samples.

Results

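The Fanconi anemia and homologous recombination genes were examined in the RNA of LSK cells. This Lin-Sca1+cKit+ population of the bone marrow (BM) includes the hematopoietic stem cells (HSCs). The members are 33 named genes of this repair pathway, and they were taken from the normalised count table by their gene symbol. All 33 had a row among the 48440 rows of the table, and all 33 passed the minimum mean normalised count of 10, which left 16251 genes for testing. Both groups came from recipient C57BL/6 mice that had received a lethal dose of 9.5 Gy and then BM from donors. The donors of 4 libraries were wild-type, and the donors of 3 libraries carried a constitutive PROSER1 KO made with an endonuclease. LSK cells were sorted at day 77 after the transplant, and polyA RNA was sequenced as read pairs. The age and sex of the mice behind these libraries and the number of donors were not given in the sources used here. The described gate holds no marker of donor cells, so that LSK cells of the host that outlived the irradiation could be among those sorted. The labels call the libraries biological replicates without naming the animals, and the p-values measure the spread between these libraries.

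The Fanconi anemia pathway removes crosslinks that tie the strands of DNA together and block replication forks. A core complex of FANC proteins at the stalled fork attaches ubiquitin to FANCD2 and FANCI, nucleases then cut the crosslink out, and the broken strand is mended by homologous recombination. In homologous recombination, broken ends are trimmed, BRCA1, PALB2 and BRCA2 prepare the single strand for pairing, and the missing sequence is copied from the sister chromatid. Inherited loss of the FANC genes causes Fanconi anemia, in which HSCs are lost and the BM fails, while loss of ATM, NBN or BLM causes other syndromes. In mice many of these genes are needed for HSCs to withstand replication stress and transplantation. Many of these genes are transcribed more in dividing than in resting cells.

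Promoter sequences were matched to 27 of the 33 members in RefSeq (GRCm38.p6), each from 250 bases before to 50 after a start site. Fancd2, Rad51d, Xrcc2, Rad50, Nbn and Rbbp8 were not matched. Each promoter was searched on both strands for CCAAT, the site of the NF-Y factor, for the E2F sites TTTCCCGC, TTTCGCGC, TTTGCCGC and TTTGGCGC, and for the cell cycle homology region as TTTGAA or TTCGAA. Searched words that overlap each other were counted once only where they covered the same bases. A gene with several listed start sites was counted by the site with the most matches. Such a site could lie within the gene, as in Fancc. CCAAT was present in 19 of the 27 members (70.4%), against 42.4% of the 11052 tested genes with a promoter. At least 3 copies were present in 4 of the 27 (14.8%), against 5.75% of the tested genes. These 4 were Brip1, Ube2t, Fancf and Xrcc3, with log2 fold changes (below) of 0.19, 0.20, -0.20 and 0.094. An E2F site was present in 5 members (18.5%), which were Bard1, Fancg, Chek2, Brca2 and Rad51c, against 4.63% of the tested genes. The cell cycle homology region was present in 3 members (11.1%), against 16.9% of the tested genes. The stretches of 6 members, all with log2 fold changes above 0, are shown as examples. They carry CCAAT copies, up to 3 in a row in Brip1 and Ube2t, and the E2F site of Brca2. They lie upstream of the start site, outside the exons of GENCODE M21, and are written in the direction of transcription with CCAAT (or ATTGG, its reverse complement) and the E2F site in capitals.
Rad54l, chr4:116123691-116123790, reverse strand: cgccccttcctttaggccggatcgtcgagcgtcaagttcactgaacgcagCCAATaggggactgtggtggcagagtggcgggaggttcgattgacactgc
Brca1, chr11:101551956-101552055, reverse strand: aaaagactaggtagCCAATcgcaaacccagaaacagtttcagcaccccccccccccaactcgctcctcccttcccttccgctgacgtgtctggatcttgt
Rad51b, chr12:79297182-79297281, forward strand: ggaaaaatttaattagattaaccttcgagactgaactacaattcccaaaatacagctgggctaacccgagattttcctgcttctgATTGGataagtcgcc
Brip1, chr11:86201194-86201293, reverse strand: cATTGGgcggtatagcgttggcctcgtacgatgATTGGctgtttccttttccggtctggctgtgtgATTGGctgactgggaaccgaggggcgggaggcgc
Ube2t, chr1:134962435-134962544, forward strand: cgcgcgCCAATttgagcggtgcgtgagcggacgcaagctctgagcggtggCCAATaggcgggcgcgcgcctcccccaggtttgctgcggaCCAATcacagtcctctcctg
Brca2, chr5:150522421-150522520, forward strand: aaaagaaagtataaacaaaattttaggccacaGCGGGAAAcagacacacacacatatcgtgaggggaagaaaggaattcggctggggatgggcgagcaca
Of the 6 members with a matched promoter and an unadjusted p-value under 0.05 (below), 6 held CCAAT and 0 held an E2F site, and of the other 21 members 13 held CCAAT and 5 an E2F site. The median log2 fold change was 0.096 over the 19 members with CCAAT and 0.084 over the 8 without it. A match describes the letters of these windows only.

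The libraries held 33143619 to 45140743 read pairs on genes. A count of 0 allows 3 read pairs, which correspond to 2.54 to 3.48 normalised counts and cover counting error only, and the lowest member value was 105 (Rad51b in wild-type replicate 4). Proser1, the targeted gene, had normalised counts of 2019.4, 2153, 2103 and 2077 in the wild-type libraries and 2464, 2359 and 2338 in the PROSER1 KO-labelled libraries. Reads of the targeted gene were thus present in the second group, where each library lay above all wild-type libraries (log2 fold change 0.19, limma, adjusted p = 0.204). The targeted gene was not lower there, so that the direction of each difference rests on the labels. The sources used here describe the change at Proser1 only as made with an endonuclease, and whether it alters the mRNA without lowering it was not tested. The 9 LSK markers summed to 108669 to 122169 normalised counts in wild-type and 109071 to 112881 in the PROSER1 KO-labelled libraries, and all 9 were above 0 in every library. Of their log2 fold changes 3 were above 0, with a median of -0.0057. Mecom was lower in each PROSER1 KO-labelled library (2160 to 2610) than in each wild-type library (2683 to 3030), as were 4.83% of all tested genes. In the other LSK markers the groups overlapped. Markers of other cells were also present. The 6 plasma cell markers summed to 159640 to 403716 and 187605 to 281229, the 8 B lineage markers to 3409 to 6834 and 3478 to 5423, and the 6 T cell markers to 286 to 358 and 164 to 1229, with the highest T cell sum in PROSER1 KO replicate 1. The granulocyte and monocyte sum (7 markers) was 7801 to 9811 and 7614 to 9226, the mast cell and basophil sum (5) was 1082 to 1339 and 1130.0 to 1210.1, and the erythroid sum (6) was 643 to 821 and 613 to 1024. Log2 fold changes were above 0 in 0 of the 6 plasma cell markers, with a median of -0.35. They were above 0 in 4 of 8 B lineage, 3 of 6 T cell and 3 of 6 erythroid markers. For granulocytes and monocytes 2 of the 6 tested were above 0, and for mast cells and basophils 2 of 5. In the order of replicates, the plasma cell sum was 277435, 228617, 159640 and 403716 in wild-type and 209120, 187605 and 281229 in the PROSER1 KO-labelled libraries. No marker was called in any of these lists, no marker was at 0 in all libraries, and their part in the values below was not tested.

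None of the 33 members was called with a minimum of fold change, while Fancd2 alone passed the adjusted p-value in DESeq2 without that minimum (below). Expression was compared with limma on log2(normalised count + 1), and a gene was called when its p-value, adjusted by Benjamini-Hochberg, was under 0.05 and its fold change above 1.5. Of all tested genes, 42 were called (0.258%), and 0 members were. edgeR on the recovered read pairs called 40 genes (0.246%) and DESeq2 called 165 of the 18903 genes to which it gave an adjusted p-value (0.873%), and 0 members were among either. The fold changes of the members lay between 0.870 (Fancf) and 1.37 (Rad51b), with standard errors of 0.042 to 0.18 on the log2 scale. For 32 members the 95% interval of the fold change lay within 1.5-fold in both directions, and for Rad51b it reached from 1.04 to 1.80. Changes above 1.5-fold therefore lay outside these intervals for all members but Rad51b, while smaller changes remained within them.

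**Figure D1:**
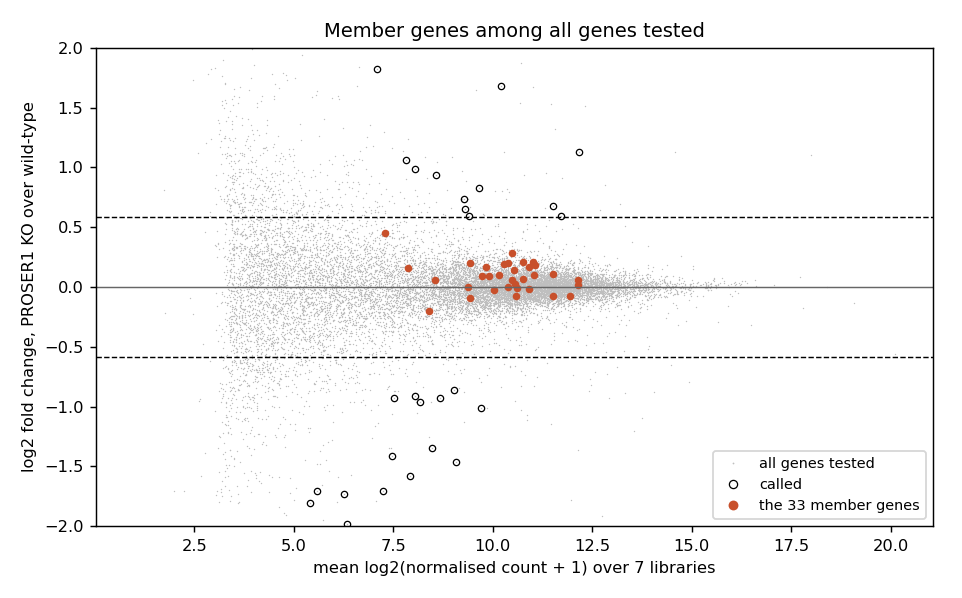
Log2 fold change (y axis, PROSER1 KO-labelled libraries over wild-type) against the mean log2(normalised count + 1) over 7 libraries (x axis) for the 16251 genes tested (grey), the called genes (open circles) and the 33 members (filled), with 1.5-fold as dashed lines. The members lie between the dashed lines, and 72 of the tested genes lie beyond the y axis.

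Small differences were mostly upward. The log2 fold change was above 0 in 25 of the 33 members (75.8%), against 50.6% of all tested genes, and its median was 0.094 against 0.0015. At an unadjusted p-value under 0.05, 8 members were higher in the PROSER1 KO-labelled libraries (Fancd2, Fancm, Rbbp8, Brca1, Rad54l, Rad51b, Fancc and Blm), against 5.00% of all tested genes, and 0 were lower, against 4.74%. In 7 members the groups did not overlap, with the PROSER1 KO-labelled libraries on top (21.2%; Fancd2, Fancm, Rbbp8, Rad54l, Fancc, Rad51b and Slx4), against 5.17% of the tested genes, and 0 members showed the reverse, against 4.83%. Members are not independent of each other and were chosen with earlier results of these data known, and these shares carry no test. The counts depended on single libraries. With fewer libraries the groups came apart in more genes, and each count of members whose groups did not overlap stands beside its own share of all tested genes. Without PROSER1 KO replicate 1 the groups did not overlap in 18 members, all higher, against 9.64% of the tested genes that were higher and 9.35% lower. Without wild-type replicate 3 they did not overlap in 11, all higher, against 8.04% and 7.97%. Without PROSER1 KO replicate 2 they did not overlap in 11 members, of which 7 were higher, against 9.93% and 9.47%. The 8 members at an unadjusted p-value under 0.05 became 4 without PROSER1 KO replicate 2, 4 without PROSER1 KO replicate 3 and 5 without wild-type replicate 4. They became 6 without wild-type replicate 1, 6 without wild-type replicate 2, 9 without wild-type replicate 3 and 11 without PROSER1 KO replicate 1. The share of all tested genes in these fits is not given here, so that a loss of power with fewer libraries cannot be told apart.

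**Figure D2:**
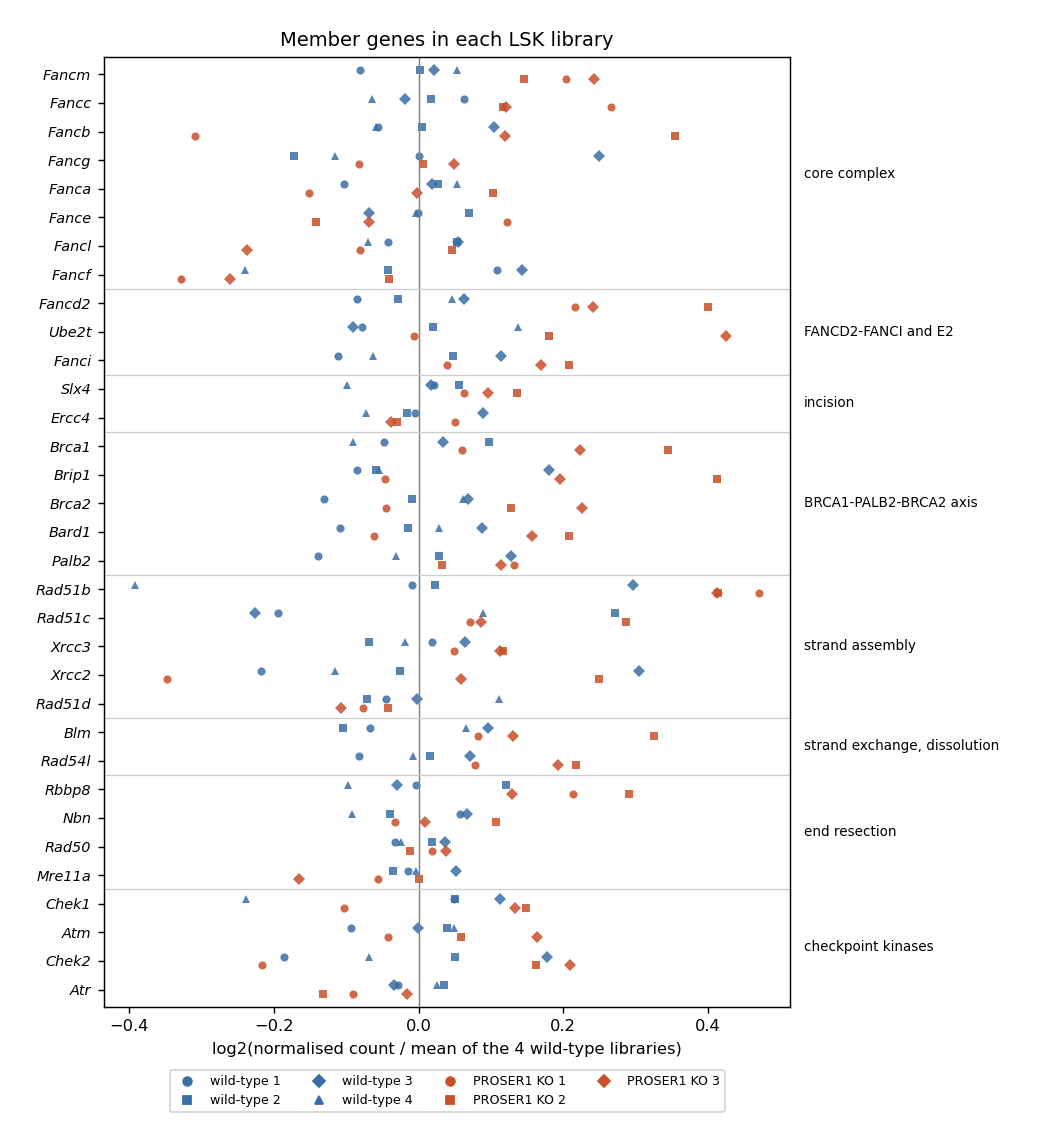
Log2 of each member's normalised count over the mean of the 4 wild-type libraries (x axis) in each of the 7 libraries (symbols; wild-type blue, PROSER1 KO-labelled orange), with members grouped by role (y axis). In 7 members the orange symbols lie to the right of all blue ones, and PROSER1 KO replicate 2 is the highest library in 15 members.

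Fancd2 and its partners had the highest median of the 8 roles. FANCD2 and FANCI form the clamp that receives ubiquitin, and UBE2T is the enzyme that carries the ubiquitin to it. All 3 genes had log2 fold changes above 0, with a median of 0.20. Fancd2 (ENSMUSG00000034023, chr6:113531682-113597017, forward strand) had normalised counts of 1228, 1277, 1361 and 1345 in wild-type, in the order of replicates 1 to 4, and 1514, 1720.3 and 1540.0 in PROSER1 KO-labelled replicates 1 to 3. The lowest PROSER1 KO-labelled library thus lay above the highest wild-type library, and replicate 2 was the highest of all. Wild-type had a mean of 1303 ± 61.6 (SD, n = 4) and the other group a mean of 1591 ± 112 (SD, n = 3), and the log2 fold change was 0.29 with a standard error of 0.067 (limma, adjusted p = 0.171). Fancd2 was the 1 member with an adjusted p-value under 0.05 in DESeq2, at 0.0227, where 0.836% of the 18903 genes with such a p-value were higher at that threshold with no minimum of fold change. It did not pass with limma or edgeR, and its adjusted p-value over all alternatives ranged from 0.0227 to 0.396. Ube2t had 618, 662, 613 and 718 normalised counts in wild-type and 649.9, 739.6 and 877 in the other group, and Fanci had 1302, 1454, 1523 and 1347 against 1446, 1625 and 1581. In both genes PROSER1 KO replicate 1 lay within the range of wild-type and replicates 2 and 3 lay above it, with log2 fold changes of 0.20 and 0.14.

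The core complex genes went in both directions. Its 8 members include FANCL, the ubiquitin ligase, FANCM, the translocase that finds the stalled fork, and the scaffold proteins FANCA, FANCB, FANCC, FANCE, FANCF and FANCG. Of the 8 log2 fold changes 4 were above 0, and their median was -0.0076. Fancm (ENSMUSG00000055884, chr12:65075603-65132058, forward strand) had 1179.9, 1249, 1267 and 1295 normalised counts in wild-type and 1438, 1381 and 1477 in the PROSER1 KO-labelled libraries. The groups did not overlap, and both had a narrow spread. Its log2 fold change was 0.20 with a standard error of 0.059 (limma, adjusted p = 0.294). Fancc (ENSMUSG00000021461, chr13:63285043-63497278, reverse strand) had 911, 883, 861 and 834 in wild-type and 1048, 945 and 949 in the other group. Here too the groups did not overlap, but PROSER1 KO replicate 1 was the highest library, as in 4 members in all. The log2 fold change of Fancc was 0.17 with a standard error of 0.069 (limma, adjusted p = 0.460).

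The lowest log2 fold changes of all members were those of Fancf, Fancl and Atr. Fancf (ENSMUSG00000092118, chr7:51860577-51862267, reverse strand), a small adaptor of the complex, had 388, 349.8, 398 and 305 normalised counts in wild-type and 287, 350.3 and 301 in the PROSER1 KO-labelled libraries. Wild-type replicate 4 lay among the libraries of the other group, and PROSER1 KO replicate 2 among the wild-type libraries. Its log2 fold change was -0.20 with a standard error of 0.13 (limma, adjusted p = 0.654). Fancl (ENSMUSG00000004018, chr11:26386135-26471876, forward strand) had 687, 734, 734 and 674 in wild-type and 669, 730.3 and 600.1 in the PROSER1 KO-labelled libraries, and the groups overlapped (log2 fold change -0.089). The remaining core genes overlapped as well. Their log2 fold changes were -0.015 in Fanca, 0.057 in Fancb, -0.028 in Fance and 1.3e-05 in Fancg, and leaving out single libraries turned the direction of each of these 4. Fancb, an X-linked gene, ranged from 295 to 468 in the PROSER1 KO-labelled libraries, against 351 to 393 in wild-type. Ranges of wild-type and of the other group were 1793 to 1999.7 and 1735 to 2071 in Fanca, 999.99 to 1101 and 951 to 1142 in Fance and 1187 to 1589.6 and 1263 to 1383 in Fancg.

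**Figure D3:**
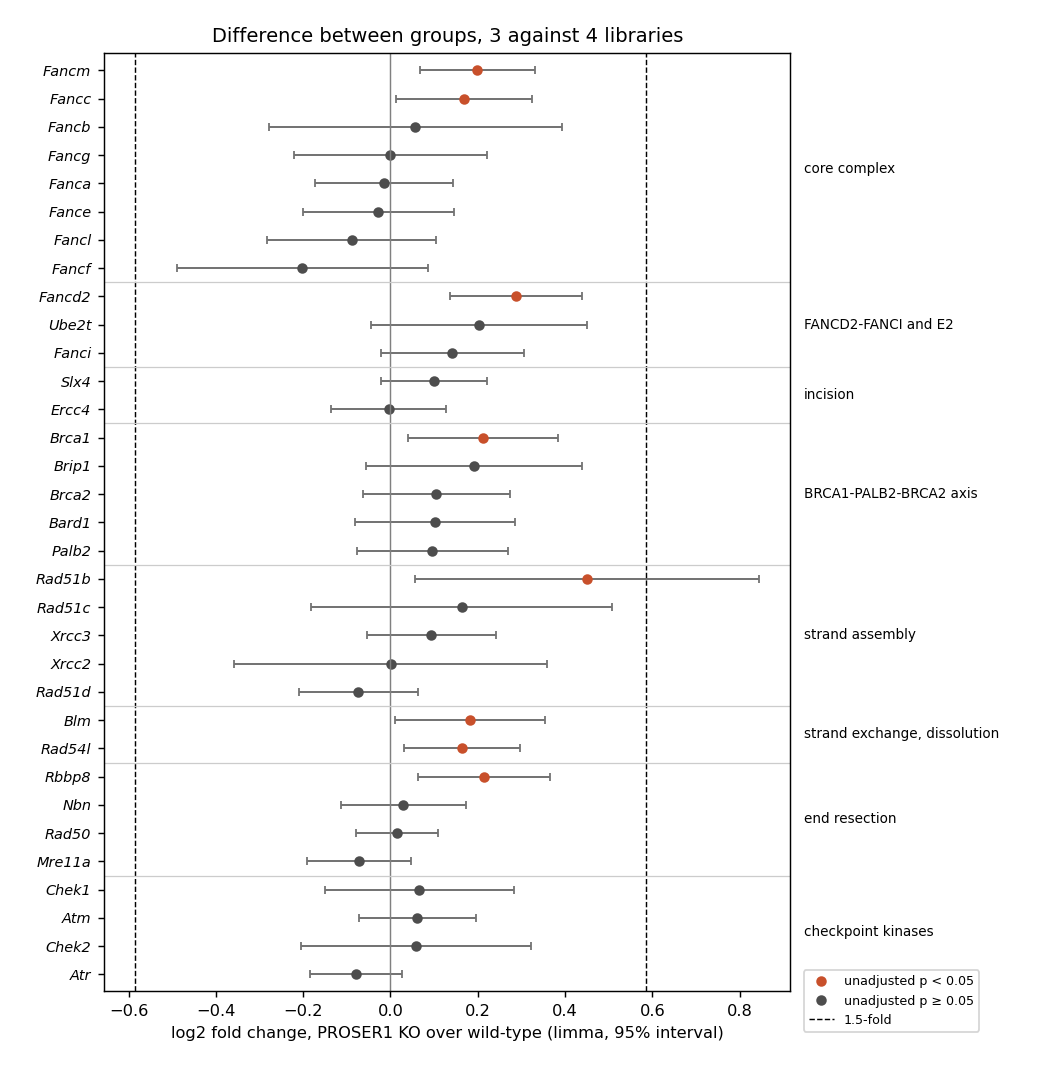
Log2 fold change of each member (x axis; PROSER1 KO-labelled libraries over wild-type, 3 against 4) with its 95% interval from limma, grouped by role (y axis), with 1.5-fold as dashed lines. The 8 members at an unadjusted p-value under 0.05 are coloured and all lie to the right of 0, and the interval of Rad51b alone crosses a dashed line.

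Of the incision genes, Slx4 encodes the scaffold that brings nucleases to the crosslink and Ercc4 (also called Xpf) encodes a nuclease subunit that makes the cut. Slx4 (ENSMUSG00000039738, chr16:3979105-4003770, reverse strand) had 2061, 2110.3, 2055 and 1895 normalised counts in wild-type and 2121, 2231 and 2171 in the PROSER1 KO-labelled libraries. The groups did not overlap, but the lowest PROSER1 KO-labelled library lay just above the highest wild-type library. This gave Slx4 a log2 fold change of 0.10 with a standard error of 0.054 (limma, adjusted p = 0.591). Ercc4 ranged over 1475 to 1649 (wild-type) and 1510.2 to 1606, and its log2 fold change was -0.0044.

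All 5 genes of the BRCA axis had log2 fold changes above 0, with a median of 0.11, and in each of the 5 the groups overlapped. Brca1 (ENSMUSG00000017146, chr11:101488764-101551955, reverse strand), which directs broken ends to recombination, had 1885, 2083, 1993 and 1828 normalised counts in wild-type and 2031, 2473 and 2274 in the PROSER1 KO-labelled libraries. PROSER1 KO replicate 1 lay below wild-type replicate 2, and the other 2 libraries of its group lay above all wild-type libraries. Brca1 had a log2 fold change of 0.21 with a standard error of 0.076 (limma, adjusted p = 0.402). Brip1, a helicase that binds BRCA1, had means of 1181 ± 105 (SD, n = 4) and 1356 ± 214 (SD, n = 3), with values of 1143, 1572 and 1353 in the PROSER1 KO-labelled libraries. Log2 fold changes of Brca2 (which prepares the single strand for pairing), Bard1 (the partner of BRCA1) and Palb2 (the bridge between BRCA1 and BRCA2) were 0.11, 0.10 and 0.096. In Brip1, Brca2 and Bard1, replicates 2 and 3 labelled PROSER1 KO were above all wild-type libraries while replicate 1 was within their range. Wild-type and the other group ranged over 2594 to 2978 and 2752 to 3322 in Brca2, 1025 to 1175 and 1059 to 1277 in Bard1 and 847 to 1019.5 and 955 to 1022 in Palb2.

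Rad51b, Rad51c, Rad51d, Xrcc2 and Xrcc3 encode related proteins that act on single strands before they pair. Among them Rad51b had the highest log2 fold change and the widest interval of all members. Rad51b (ENSMUSG00000059060, chr12:79297282-79814690, forward strand) had 138, 141, 170.1 and 105 normalised counts in wild-type and 192, 184 and 184 in the PROSER1 KO-labelled libraries. The 3 PROSER1 KO-labelled libraries lay close together and above all wild-type libraries, which spread from 105 to 170.1. Its log2 fold change was 0.45 with a standard error of 0.18 (limma, adjusted p = 0.442). Without wild-type replicate 4, its lowest library, the log2 fold change was 0.33. Rad51c, Xrcc3, Xrcc2 and Rad51d had log2 fold changes of 0.16, 0.094, 0.00076 and -0.074, and the groups overlapped in all 4. Normalised counts of wild-type and of the other group ranged over 191 to 269.5 and 235 to 272 in Rad51c, 782 to 857 and 848 to 889 in Xrcc3 and 1492 to 1695 and 1456 to 1523 in Rad51d. Both groups spread widely over 579.9 to 833 and 529.9 to 802 in Xrcc2.

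The genes of strand exchange and dissolution were Rad54l, a motor that helps strands to pair, and Blm, a helicase that resolves joined DNA molecules. Rad54l (ENSMUSG00000028702, chr4:116094264-116123690, reverse strand) had 1733, 1855, 1928 and 1826 normalised counts in wild-type and 1937, 2134 and 2098 in the PROSER1 KO-labelled libraries. The groups did not overlap, with PROSER1 KO replicate 1 just above wild-type replicate 3. The log2 fold change of Rad54l was 0.16 with a standard error of 0.059 (limma, adjusted p = 0.402). Blm (ENSMUSG00000030528, chr7:80454733-80535119, reverse strand) had 1939.6, 1891, 2174 and 2127 in wild-type and 2152, 2549 and 2225 in the PROSER1 KO-labelled libraries. PROSER1 KO replicate 1 lay below wild-type replicate 3, and replicate 2 stood well above the rest. For Blm the log2 fold change was 0.18 with a standard error of 0.076 (limma, adjusted p = 0.473).

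Of the end resection genes, Rbbp8 (also called CtIP), which starts the trimming of broken ends, had groups that did not overlap, while those of the 3 genes of the MRN complex that it works with did. Rbbp8 (ENSMUSG00000041238) had 1616, 1762, 1587 and 1514 normalised counts in wild-type and 1879, 1982 and 1772 in the PROSER1 KO-labelled libraries. The groups did not overlap, with PROSER1 KO replicate 3 just above wild-type replicate 2. Its log2 fold change was 0.21 with a standard error of 0.067 (limma, adjusted p = 0.331). Rad50, which tethers DNA ends, Mre11a, the nuclease of the complex, and Nbn, the subunit that recruits ATM, had log2 fold changes of 0.015, -0.073 and 0.029. Their 95% intervals in fold were 0.947 to 1.08, 0.876 to 1.03 and 0.924 to 1.13. The interval of Rad50, the member with the smallest standard error, was the narrowest. Normalised counts ranged over 4401 to 4618 and 4467 to 4622 in Rad50, 2932 to 3113 and 2679.6 to 3007 in Mre11a and 1406 to 1570.1 and 1465 to 1614 in Nbn, wild-type first.

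The checkpoint kinases signal damaged DNA, ATM from broken ends through CHEK2 and ATR from stalled forks through CHEK1. Atr (ENSMUSG00000032409, chr9:95857597-95951781, forward strand) had 3945, 4121, 3926 and 4093 normalised counts in wild-type and 3775, 3671 and 3978 in the PROSER1 KO-labelled libraries. PROSER1 KO replicates 1 and 2 lay below all wild-type libraries and replicate 3 within their range, and the log2 fold change was -0.079 with a standard error of 0.047 (limma, adjusted p = 0.624). Chek1, Atm and Chek2 had log2 fold changes of 0.066, 0.061 and 0.058. Their wild-type libraries and the others ranged over 1459.5 to 1862 and 1603 to 1908 in Chek1, 4173 to 4605 and 4323 to 4985 in Atm and 1239.5 to 1597 and 1214 to 1631 in Chek2. In all 3 the groups overlapped, and PROSER1 KO replicate 1 was the lowest library of its group.

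Ratios within a library, which do not depend on its size factor, were compared for 8 pairs of genes whose products act together. For none of the 8 did the difference between the groups pass the test (two-sided exact permutation test over 35 assignments, adjusted p-values of 0.343 to 1), but with 8 pairs few outcomes could pass. The smallest exact p-value that 4 libraries against 3 allow is 0.0286, which for 1 pair of 8 gives an adjusted p-value of 0.229, and 5 pairs would have had to reach it together for an adjusted p-value under 0.05. The Fancd2/Fanci ratio was 0.928 ± 0.054 in wild-type (SD, n = 4) against 1.03 ± 0.046 in the other group (SD, n = 3) (exact permutation p = 0.0857, adjusted p = 0.343). The Brca1/Bard1 ratio was 1.76 ± 0.13 and 1.90 ± 0.048, and the Rad51b/Rad51c ratio 0.642 ± 0.20 and 0.758 ± 0.072. The Palb2/Brca2 and Chek2/Atm ratios had log2 differences of -0.0093 and -0.0031. For the Mre11a/Rad50, Nbn/Mre11a and Chek1/Atr ratios the log2 differences were -0.088, 0.10 and 0.15.

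The libraries of a group differed among themselves in the members as a whole. The mean log2 deviation of the 33 members from their mean over the 7 libraries was -0.085, -0.022, 0.033 and -0.072 in the 4 wild-type libraries and -0.031, 0.11 and 0.063 in the 3 PROSER1 KO-labelled ones. PROSER1 KO replicates 2 and 3 were the highest libraries, and PROSER1 KO replicate 1 lay among the wild-type libraries. Replicate 1 labelled PROSER1 KO was above all wild-type libraries in 9 members and below them in 9, replicate 2 in 21 and 2, and replicate 3 in 20 and 4. The mean deviation of the G2/M list of Seurat (54 genes, members removed) was -0.14, -0.11, 0.092 and -0.11 and -0.071, 0.21 and 0.13, so that PROSER1 KO replicates 2 and 3 and wild-type replicate 3 were again the highest. Of these G2/M genes 51 had log2 fold changes above 0, with a median of 0.16, and 17 (31.5%) were higher at an unadjusted p-value under 0.05, against 5.00% of all tested genes. The S phase list (36 genes) had 29 above 0, a median of 0.062 and 3 such genes (8.33%). The list of replication genes (35) had 30 above 0, a median of 0.045 and 0 such genes (0%). In both of these lists PROSER1 KO replicate 2 was the highest library, at 0.16 and 0.15, while replicate 3 was at -0.012 and -0.011. The S phase and replication lists share genes, such as Mcm6, Pcna and Rrm2, so that their values are not independent. In bulk RNA, more cells of a kind and more RNA per cell cannot be told apart, and the part of cell cycle in the members' values was not tested.

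**Figure D4:**
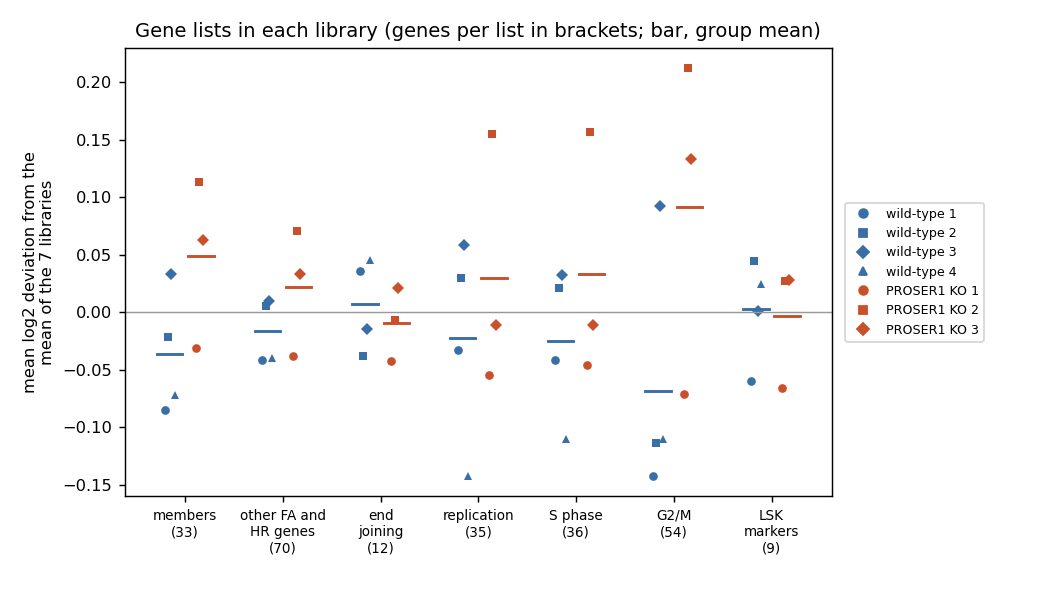
Mean log2 deviation from the mean of the 7 libraries (y axis) for the members and 6 other gene lists (x axis) in each library (symbols; bars, group means). The groups overlap in each list, and PROSER1 KO replicate 2 is the highest library in the members, the other repair genes, replication, S phase and G2/M. The replication and S phase lists share genes.

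A list of 71 further Fanconi anemia and homologous recombination genes had 70 in the table, all tested, of which 0 were called by limma, edgeR or DESeq2. Their log2 fold changes were above 0 in 47, with a median of 0.049. At an unadjusted p-value under 0.05, 5 were higher and 0 lower (Rfwd3, Etaa1, Wrn, Polq and Exo1, of which Rfwd3 and Wrn were named after their values were seen). These 5 are 7.14% of the list, near the 5.00% of all tested genes. The count of 5 became 1 without wild-type replicate 1 and without PROSER1 KO replicate 3, 3 without wild-type replicate 3 and without PROSER1 KO replicate 2, and 9 without PROSER1 KO replicate 1. The share of all tested genes in these fits is not given here. The highest log2 fold changes were 0.26 in Polq, a polymerase of an alternative end joining route, 0.20 in Etaa1, an activator of ATR, and 0.19 in Exo1, a nuclease of end resection. The lowest were -0.14 in Tipin, a fork protection factor, -0.12 in Shld1, a shieldin subunit that limits resection, and -0.12 in Swsap1, a recombination factor. As Polq and Shld1 show, the list also holds genes that serve another route or limit resection, so that it is not cleanly apart from end joining. The 12 genes of end joining, the rival route of break repair, had 4 log2 fold changes above 0 and a median of -0.031. The 10 p53 target genes had 4 above 0 and a median of -0.011, and the 5 aldehyde clearance genes, which remove a source of crosslinks, had 2 above 0 and a median of -0.0045. None of these was called, and at an unadjusted p-value under 0.05 they gave 0, 1 and 1 genes, all higher (0%, 10% and 20% of these short lists).

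Levels were compared between members as the normalised count per kilobase of joined exons (GENCODE M21) in wild-type. Rad50 had the highest level, at 838 ± 19.4 per kilobase (SD, n = 4), followed by Nbn at 592 ± 31.3 and Mre11a at 507 ± 13.1, which are the 3 genes of the MRN complex. Next came Chek2, Atm, Rad51d, Chek1, Fancg, Fance and Xrcc3, at 470.1 down to 298 per kilobase. The middle of the order held Slx4, Fanci, Rad54l, Blm, Ercc4, Brca1, Fanca, Fancf, Fancl, Brca2 and Bard1, at 265 to 195. Atr, Fancd2, Brip1, Ube2t, Rbbp8, Xrcc2, Palb2, Fancb, Fancm and Fancc followed at 170.2 to 104. Rad51c and Rad51b had the lowest levels, at 50.9 ± 8.52 and 36.8 ± 7.03. Of the 32 neighbours in this order, 8 did not overlap over the wild-type libraries, which were the steps below Rad50, Nbn, Fance, Xrcc3, Bard1, Brip1, Fancm and Fancc, and the other 24 overlapped. The order depends on the length used. Per kilobase of the longest coding transcript, Rad50 stayed the highest at 874, but Chek2 at 619.9 and Rad54l at 607 came above Nbn at 592, and Ube2t at 585 above Mre11a at 531. Atr moved up to 496, and Rad51b and Rad51c stayed the lowest at 63.3 and 56.6.

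**Figure D5:**
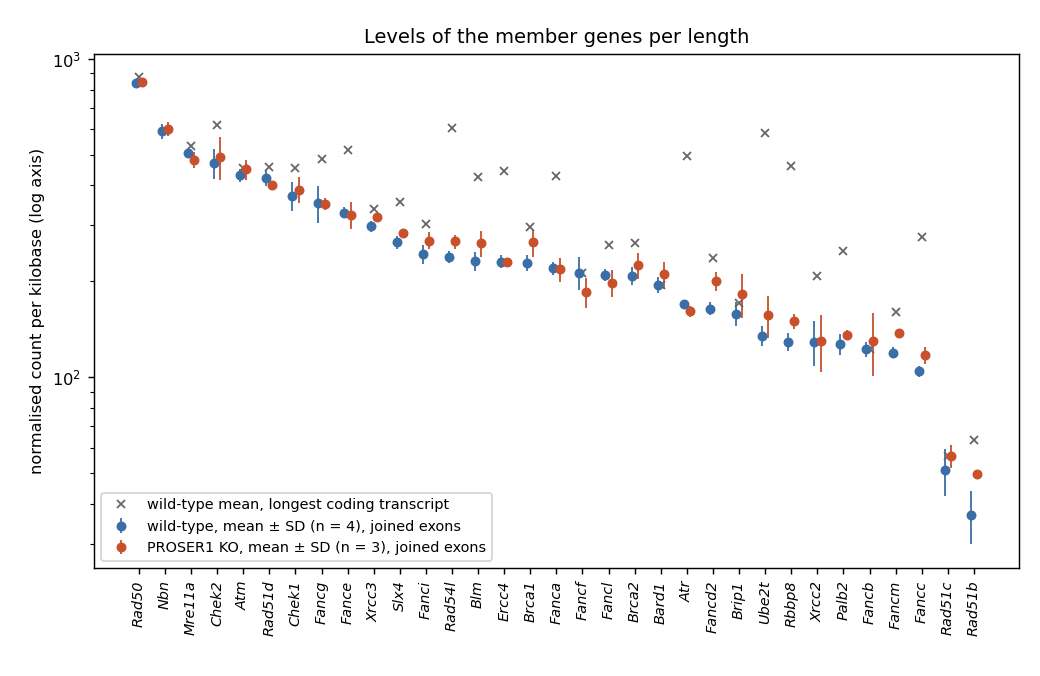
Normalised count per kilobase (log axis) of each member (x axis), as mean ± SD of wild-type (blue, n = 4) and of the PROSER1 KO-labelled libraries (orange, n = 3) over joined exons, and as the wild-type mean over the longest coding transcript (crosses). Rad50 is the highest and Rad51b and Rad51c are the lowest by either length.

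Several members share bases with a gene on the other strand, and whether counting used strand was not stated in the sources used here. Over 10% of the joined exon bases were shared in 6 members, which were Fanca (10.5%, with Zfp276), Fancc (16.4%, with Gm16133), Fancf (14.96%, with Gas2), Fanci (15.95%, with Polg), Fancl (13.7%, with Vrk2) and Rad54l (15.4%, with Lrrc41). The values of these 6 are uncertain to that extent. The log2 fold changes of Lrrc41, Polg, Gas2 and Vrk2 were -0.021, -0.065, -0.035 and 0.096, and Gm16133 had a mean of 0 in wild-type. Fancd2 shared 3.24% with Fancd2os, which had a mean normalised count of 0.575 in wild-type.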

How the data were processed

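Before depositing the table, the authors trimmed read pairs (Trimmomatic), mapped them to mm10 (STAR), counted pairs per gene (featureCounts) and scaled each library by its DESeq2 size factor. Versions of these tools are not given in the sources used here. The deposited normalised counts, a normalised signal per gene, were not filtered. Read pairs were recovered from the step of each library (100% of values whole within 0.01). Rows without a symbol (685) stayed in the tests.

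Groups were compared over 16251 genes (mean of at least 10) with limma 3.58.1 in R 4.3.3, by lmFit and eBayes with trend on log2(value + 1). The design had assumed values that are not counts. edgeR 4.0.16 (quasi-likelihood) and DESeq2 1.42.0 ran on the recovered pairs. Other alternatives were a pseudocount of 0.1 or 10, a minimum mean of 50 or no minimum, no trend, robust eBayes, quantile and TMM normalization, no fold change minimum, a replicate block and each library left out. The procedures were tested on simulated data whose planted changes were larger than those of any member, so that smaller changes were not covered. S and G2/M lists came from Seurat 5.3.0, other lists from general knowledge. The members and lists were chosen with earlier results of these data known. Members were given in full where the unadjusted p-value was under 0.05, groups did not overlap, or the log2 fold change was among the 3 highest or lowest. Exon lengths and positions come from GENCODE M21 (GRCm38), while the file header names release M10 and the methods M25. Lengths of the longest coding transcript and DESeq2 without a fold minimum were added after seeing the data.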

Additional observations from a re-analysis of the deposited data

Results flagged for a closer look

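Within the 4 wild-type libraries, 42 sets of values were searched for a library far from the others (33 members, 8 ratios and 1 targeted gene), and 2 stood out, where chance marks about 1 in 20. Brip1 had 1338 normalised counts in wild-type replicate 3, against 1114, 1134 and 1137 in the others. Without this library its log2 fold change was 0.25, against 0.19 with it. The Mre11a/Rad50 ratio was 0.643 in wild-type replicate 2, against 0.675, 0.674 and 0.677 in the others.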

How the results depend on the processing

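Of the members, 0 were called under any alternative with the minimum of fold change, and 1 (Fancd2) with DESeq2 and no such minimum. The log2 fold change kept its sign under all 18 alternatives in 24 members and changed it in 9, all between -0.028 and 0.066. The 24 include the 8 at an unadjusted p-value under 0.05, whose selection in these same libraries made a change of sign unlikely. With libraries left out, the log2 fold change ranged from -0.075 to 0.052 in Fanca, -0.093 to 0.24 in Fancb, -0.10 to 0.028 in Fance, -0.054 to 0.086 in Fancg, -0.033 to 0.026 in Ercc4, -0.13 to 0.17 in Xrcc2, -0.011 to 0.059 in Nbn, -0.011 to 0.15 in Chek1 and -0.021 to 0.19 in Chek2, and the log2 difference of ratios from -0.10 to 0.042 in Palb2/Brca2 and -0.059 to 0.080 in Chek2/Atm. Fancg was -3.9e-05 with a pseudocount of 10, -0.0075 with edgeR and -0.0071 with DESeq2, and Ercc4 0.0018 with quantile normalization. With libraries left out, members higher at an unadjusted p-value under 0.05 numbered 4 to 11, the other pathway genes 1 to 9 (1 without the trend), members whose groups do not overlap 7 to 18 and all called genes 23 to 42. The share of all tested genes at that unadjusted p-value is not given for these fits, so that a change of power cannot be told apart. Without the trend 17 genes were called in all, with robust eBayes 80 and with DESeq2 165. The cause was not tested.

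The replicate numbers did not pair the libraries (correlations of deviations by number were 0.023, 0.058 and -0.11). Wild-type replicate 4 has no PROSER1 KO library of its number, so that the replicate block gives the log2 fold changes found without that library. With the replicate block, log2 fold changes were 0.0030 in Fanca, -0.035 in Fancg, -0.033 in Xrcc2, -0.00098 in Nbn and -0.011 in Chek1, all of opposite sign to those without it. These changes of sign are therefore those of leaving out wild-type replicate 4. The block gave 35 called genes in all, 0 members called and 7 members higher at an unadjusted p-value under 0.05, where the share of all tested genes is not given. Levels per kilobase moved by more than their SD in 27 members with the longest coding transcript. Standard errors of up to 0.18 limit what 4 against 3 libraries can show.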
